A study of Mus musculus with 4 samples.

Results

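Dopamine (DA) neurons of the ventral tegmental area (VTA) and the substantia nigra (SN) share the enzymes and transporters of DA, and they are told apart by a small number of transcripts. Otx2, Calb1, Calb2, Lpl, Neurod6 and Crym are known from other work as transcripts that lean toward the VTA. They were examined here as the probesets of the array whose annotation gives 1 of these 6 symbols and no other, which are 10 of the 45101 probesets deposited. Calb1 has 4 probesets, Lpl has 2, and the other genes have 1 each. OTX2 is a homeodomain transcription factor of VTA neurons, and NEUROD6 is a basic helix-loop-helix (bHLH) transcription factor of a subset of them. Calbindin (Calb1) and calretinin (Calb2) are cytosolic calcium-binding proteins, lipoprotein lipase (Lpl) releases fatty acids from lipoprotein triglycerides, and mu-crystallin (Crym) binds thyroid hormone. None of the 6 genes is restricted to DA neurons. Calbindin and calretinin are also made by GABAergic neurons, calbindin by Purkinje cells of the cerebellum and calretinin by cerebellar granule cells, Neurod6 by excitatory neurons of cortex and hippocampus, and Otx2 by the choroid plexus.

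Translating Ribosome Affinity Purification (TRAP) collects GFP-tagged ribosomes together with their mRNA, and was done on midbrain of the Slc6a3 JD1640 TRAP line, in which a bacterial artificial chromosome (BAC) puts eGFP/RPL10A under the regulatory sequences of the DA transporter gene. The tag marks DA neurons of the whole dissected midbrain, so those of the SN and of the VTA cannot be told apart within a sample. Each of the 4 arrays came from a pool of 5 adult mice of both sexes, 6 to 12 weeks old and untreated as far as the labels state, and every mouse carried the transgene, in 1 line made on FVB and bred to C57BL6/j. TRAP RNA was measured on 2 arrays (replicates 2 and 4) and RNA of the whole dissected midbrain on 2 (replicates 1 and 2, labelled unbound (total) RNA and called input here). Values are given in arbitrary expression units, which are 2 raised to the deposited log2 value. A probeset is called above background if TRAP or input reached 50 units on both of its arrays. Because the tissue is bulk, a lower level cannot be assigned to fewer cells of a type or to less RNA per cell.

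The tagged population was DA-like by its defining genes. Slc6a3 was at 37882 and 41149 units in TRAP and at 4856 and 5824 in input. For all 11 DA identity genes above background, of 12 measured, both TRAP arrays exceeded both input arrays (Lmx1a was not above background). The same held for 52.3% of all genes above background. Drd2, Pitx3, En1 and Foxa2 passed background through TRAP alone, the fraction in which they are high. The pools were not equal. All 11 GABAergic markers that passed background were brighter on TRAP replicate 2 than on TRAP replicate 4, by 1.83 log2 units at the median, while the list of 13 summed to 3864 to 9559 units in TRAP and 10234 to 17466 in input. On input replicate 2 the choroid plexus gene Ttr was at 17929 units, against 1334 on input replicate 1, and the cerebellar granule cell gene Gabra6 was at 5.10 units against 564. The 3′ to 5′ balance of the control probesets also moved with the fraction, and the 3′ control probeset of Gapdh exceeded the 5′ probeset by 4.96 and 3.52 log2 units in TRAP and by 6.81 and 6.39 in input. Its part in the results below was not tested.

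Which VTA-leaning transcripts were enriched on tagged ribosomes was asked with limma over 45037 probesets. Calb1 rose in TRAP, by 3.42-fold on its brightest probeset. Calb2 and Lpl lay above input on both TRAP arrays, 2.15-fold and 2.66-fold on average, and missed the threshold. Neurod6 overlapped between the fractions, and Otx2 and Crym were not above background. Over the 10 probesets 1 was called higher and 1 lower, beside 19.0% and 26.1% of all probesets. Of the 11760 probesets called lower, only 1559 were above background. Of the 10, 5 were above background, and 1 of these 5 was called higher and 0 lower, where 18.8% of the 17073 probesets above background were called higher and 9.13% lower. Without adjustment, 2 of the 5 were higher by limma at p under 0.05 (28.0% of probesets above background) and none of them lower. Both TRAP arrays exceeded both input arrays for 4 of the 5 and lay below both for 0, against 51.5% and 24.9% of probesets above background. All 5 had positive log2 fold changes, as did 64.9% of probesets above background. These shares are descriptions, and the count of the markers is too small to be set apart from them. With 2 arrays against 2, an exact permutation test of 1 probeset cannot go below p = 0.333 (2-sided), so the p-values here come from limma. It borrows the spread of all probesets, but only weakly here (0.317 prior against 2 residual degrees of freedom). Each test therefore still rests mostly on the 2 arrays per fraction.

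**Figure D1:**
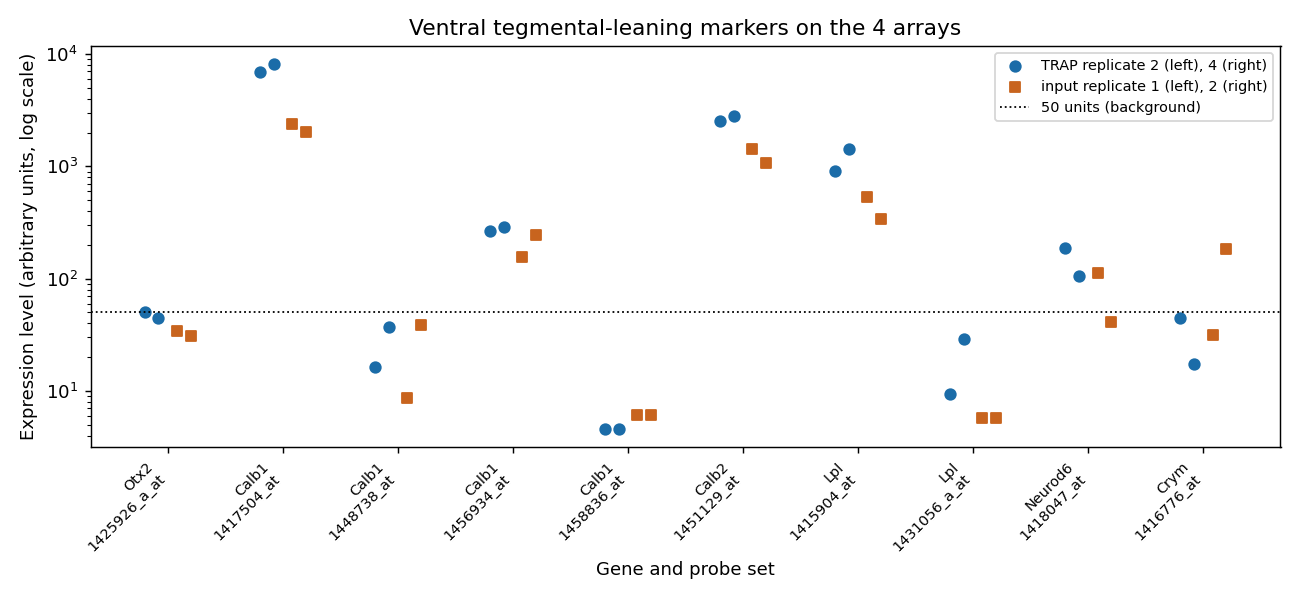
Levels of the 10 probesets on the 4 arrays, in arbitrary expression units on a log axis, with circles for TRAP, squares for input and a dotted line at 50 units. For Calb1 probeset 1417504_at TRAP lies at 6939 and 8125 units, well over its input values of 2376 and 2026, while both fractions of Otx2 lie close to the dotted line.

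Calbindin gave the clearest difference. On probeset 1417504_at Calb1 read 6939 units in TRAP replicate 2 and 8125 in TRAP replicate 4, against 2376 and 2026 units in input replicates 1 and 2. The fractions did not overlap, and the lowest TRAP array was 2.92 times the highest input array. Means were 7532 ± 839 units (SD, n = 2) in TRAP and 2201 ± 248 in input. On the log2 scale the change was 1.77, with a standard error of 0.15 and a 95% confidence interval of 1.21 to 2.34 (adjusted p = 0.0127 from limma). The pools of a fraction differed by 1.17-fold in TRAP and by 1.17-fold in input. The call was lost when any 1 array was left out, with an adjusted p of 0.0627 to 0.0949 from limma and log2 fold changes of 1.66 to 1.89. It was also lost with values under 50 units raised to 50 (adjusted p = 0.0699 from limma), although no Calb1 value on this probeset changes then. Cerebellar neuron markers were also higher in TRAP in part. Of 10 measured, 8 were above background, 7 of these with positive values (median log2 fold change 1.45), 1 rose and 1 fell. Of all genes above background, 65.8% were positive, 18.7% were called higher and 6.87% lower. The median of the list was 0.28 without input replicate 2 and 3.235 without input replicate 1. Slc1a6, a glutamate transporter of Purkinje cells, rose (102.7 and 116 units in TRAP, 19.7 and 18.8 in input, adjusted p = 0.00243 from limma), and passed background through TRAP alone. Pcp2, a Purkinje cell gene, was at 329 and 223 units in TRAP and 117 and 11.8 in input, and Car8, also strong in Purkinje cells, at 1158 and 1051 and at 419 and 72.5 (adjusted p = 0.238 and 0.179 from limma). The granule cell gene Gabra6 was at 104 and 132 units in TRAP and 564 and 5.10 in input. Cbln3 of the same list was at 113.7 and 125.5 in TRAP and 166.5 and 7.25 in input. Both overlapped between the fractions. Zic1, a zinc finger factor of granule cells, fell (1872 and 1379 units in TRAP, 8037 and 8028 in input, adjusted p = 0.0137 from limma), and Zic2 and Pax6 were under 50 units on every array. The list summed to 21819 to 28352 units in TRAP and 21107 to 25084 in input, most of it Pcp4, and its part in the Calb1 and Calb2 values was not tested.

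The other Calb1 probesets gave no such difference. Probeset 1456934_at was at 264 and 287 units in TRAP and at 157 and 247 in input, so its TRAP arrays were higher by as little as 1.07-fold. Its log2 fold change was 0.48 (95% confidence interval -0.69 to 1.65, adjusted p = 0.293 from limma), near the median of 0.44 over all probesets above background. Probeset 1448738_at, which the annotation ties to the same source sequence as 1417504_at, was below 50 units on every array, at 16.2 and 37.2 in TRAP and 8.69 and 39.1 in input. Probeset 1458836_at lay near the lowest value of the arrays, at 4.58 units on both TRAP arrays and 6.13 on both input arrays. It was formally called lower, but identical values within a fraction leave no spread to test against, and its level is not measured. The rise of Calb1 therefore rests on 1 of its 4 probesets, and whether the probesets cover different transcripts is not given in the sources used here.

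Calretinin showed a smaller ratio with little spread. Calb2 was at 2511 and 2811 units on the TRAP arrays and at 1428 and 1073 on the input arrays. Both TRAP values exceeded both input values, by at least 1.76-fold. Means were 2661 ± 212 units (SD, n = 2) in TRAP and 1250 ± 252 in input, a log2 fold change of 1.10 (standard error 0.21, 95% confidence interval 0.32 to 1.88, adjusted p = 0.0525 from limma). Its unadjusted p from limma was 0.024. It passed when probesets above background were fitted alone (adjusted p = 0.0388 from limma), with an intensity trend (0.0285) and after centring of the arrays (0.0251), so the call depends on these choices. The range over all alternatives was 0.0251 to 0.218.

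Lpl had a wider spread between pools. Its brighter probeset, 1415904_at, read 911 units in TRAP replicate 2 and 1423 in TRAP replicate 4, against 536 and 343 units in input. The fractions did not overlap, but the pools differed by 1.56-fold within TRAP and by 1.56-fold within input. Means were 1167 ± 362 units (SD, n = 2) and 440 ± 136, a log2 fold change of 1.41 (standard error 0.42, 95% confidence interval -0.19 to 3.01, adjusted p = 0.0979 from limma). Lpl did not pass under any alternative on this probeset. The dimmer probeset 1431056_a_at was below 50 units on all 4 arrays, at 9.34 and 29.0 in TRAP and at 5.71 on both input arrays, and gives no fold.

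The transcription factors were dim. Neurod6 read 188 units in TRAP replicate 2 and 105 in TRAP replicate 4, against 112 and 41.1 units in input replicates 1 and 2. TRAP replicate 4 lay below input replicate 1, so the fractions overlapped. Its log2 fold change was 1.05 (standard error 0.77, 95% confidence interval -1.88 to 3.99, adjusted p = 0.343 from limma), an interval that holds both a marked rise and a marked fall. Neurod6 counted as above background through TRAP alone, the fraction in which its mean is higher. It was 1.78 times higher on TRAP replicate 2 than on TRAP replicate 4, in the direction of the GABAergic markers. The cortical and hippocampal excitatory markers had 5 of 10 measured genes above background, all 5 higher on TRAP replicate 2 (median 0.48 log2 units). Their summed level was 2219 to 2617 units in TRAP and 2347 to 4312 in input, and the defining markers Slc17a7, Tbr1, Emx1 and Fezf2 were under 50 units on every array. On input, Neurod1 was higher on replicate 1, as Neurod6 was, and Camk2a, Cux2, Nrgn and Neurod2 were higher on replicate 2. Their part in the Neurod6 values was not tested.

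Otx2 was at 50.6 and 44.5 units in TRAP and at 34.05 and 30.8 in input. Both TRAP arrays were above both input arrays, but only 1 of the 4 values reached 50 units, so no fold is given. The adjusted p was 0.0574 from limma, and 0.0208 after quantile normalization. With values under 50 units raised to 50 the log2 difference was 0.01, and after centring of the arrays it was 0.14 (adjusted p = 0.359 from limma). Of 9 choroid plexus and ependyma markers measured, Ttr alone was above background. The list summed to 168 to 1229 units in TRAP and 1440 to 18057 in input, and Folr1, Kl, Clic6, Kcnj13 and Aqp1 were under 50 units on every array. The part of these markers in the Otx2 values was not tested.

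Crym was the only 1 of the 6 genes whose brightest probeset had a lower mean in TRAP. It was at 44.5 and 17.5 units in TRAP and at 31.5 and 185 in input, with 1 array of 4 over 50 units. The fractions overlapped, and the single high value was input replicate 2. The log2 difference was -1.45 (95% confidence interval -6.53 to 3.62, adjusted p = 0.428 from limma). Without input replicate 2 it was -0.17, and without input replicate 1 it was -2.73, so 1 array decides its size. Input replicate 2 was also the array with more Ttr and more Camk2a, a kinase gene of forebrain neurons (1278 units, against 264 on input replicate 1). Their part in the Crym value was not tested.

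**Figure D2:**
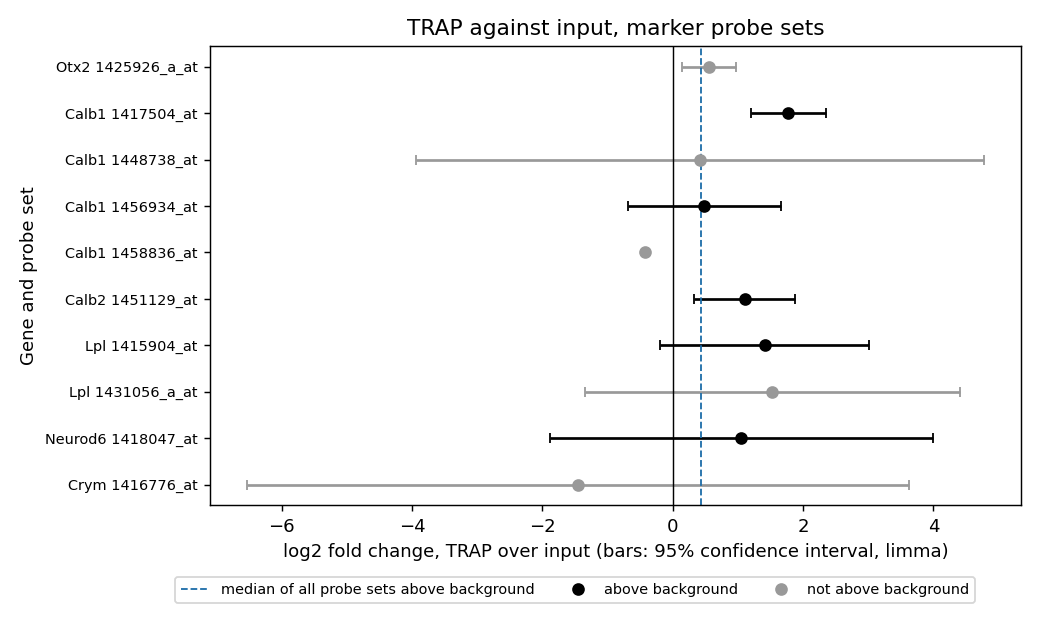
TRAP over input on the log2 scale for each of the 10 probesets, with 95% confidence intervals from limma, black where above background and gray where not. The interval of Calb1 1417504_at (1.21 to 2.34) lies above the dashed median of all probesets above background (0.44). That of Calb1 1458836_at is almost without width (-0.424 to -0.418) because its values are identical within each fraction.

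Scaling bears on all of these values, because the median log2 fold change over probesets above background was 0.44 and centring each array on bright probesets moved every difference by -0.41. After centring, the log2 difference was 1.37 for Calb1 1417504_at (adjusted p = 0.00647 from limma), 0.69 for Calb2, 0.9995 for Lpl 1415904_at (adjusted p = 0.0596 from limma), 0.64 for Neurod6 and 0.07 for Calb1 1456934_at. Neither of the last 2 passed (adjusted p = 0.412 and 0.831 from limma).

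**Figure D3:**
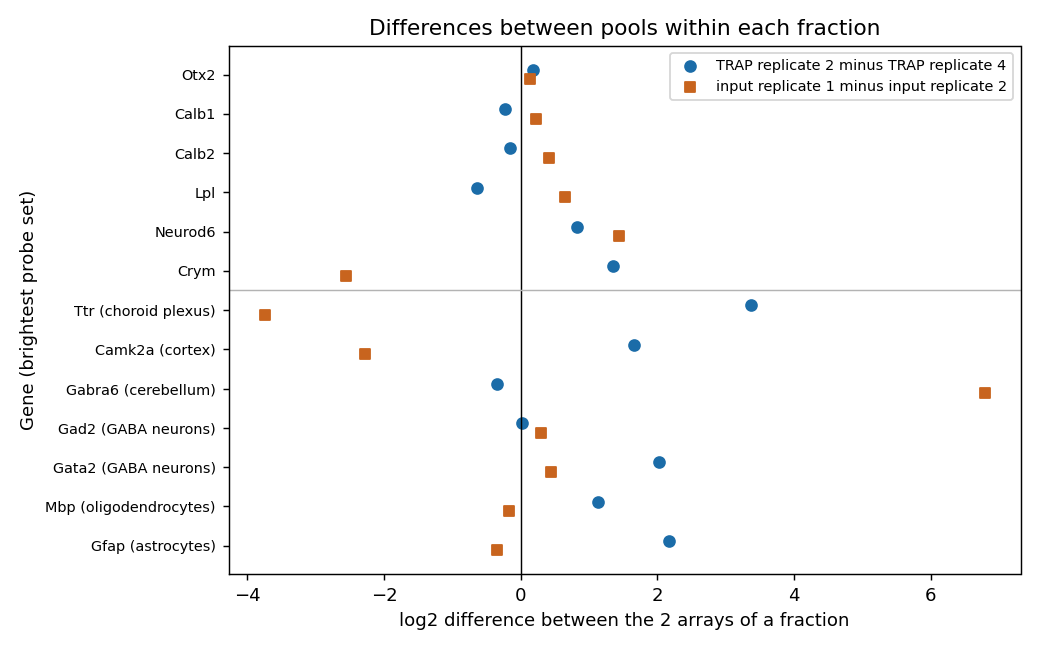
Log2 difference between the 2 arrays of a fraction for the brightest probeset of each marker gene (above the gray line) and for 7 genes of other cell types (below it), with circles for TRAP and squares for input. Calb1 and Calb2 lie within 0.41 log2 units of 0 in both fractions, whereas Crym (-2.55 in input) and Neurod6 (1.45 in input) lie far from it, as do Ttr and Gabra6.

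Among the 4 genes above background, Calb1, Calb2 and Lpl lay nearer to one another than any of them did to Neurod6. After each gene was centred on its own mean over the 4 arrays, the distance between Calb2 and Lpl was 0.49 log2 units, between Calb1 and Lpl 0.55 and between Calb1 and Calb2 0.69, while Neurod6 was 1.02 to 1.35 from the other genes. Calb1, Calb2 and Lpl were each higher on TRAP replicate 4 than on TRAP replicate 2 and higher on input replicate 1 than on input replicate 2, and Neurod6 was higher on TRAP replicate 2. By the same measure, over 4 arrays and 10013 other genes above background, the genes nearest to Calb1 were Slc25a1 (0.03), Mettl1 (0.04) and Maea (0.05). Nearest to Calb2 were Pgap4 (0.04), Kat7 (0.06) and Phtf2 (0.07), nearest to Lpl were Cog6, Mfsd9 and Mal2 (0.11 to 0.12), and nearest to Neurod6 were Wdr35, Lyar and Coa6 (0.09 to 0.11). All of these distances are smaller than those among the 4 markers, and with 4 arrays such closeness describes the arrays only.

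Other transcripts that lean toward the VTA did not move as a group. Of 12 further genes measured, all above background, 1 rose and 2 fell, beside 18.7% of genes above background called higher and 6.87% lower. Both TRAP arrays lay above both input arrays for 5 of the 12 and below both for 5, against 52.3% and 23.6% of genes above background. Their median log2 fold change was 0.34, and 0.44 for all genes above background. Grp, which encodes gastrin-releasing peptide, was at 1241 and 1691 units in TRAP and 37.3 and 55.2 in input. Its log2 fold change was 5.00 (adjusted p = 0.0082 from limma). It passed background through TRAP alone, the fraction in which it is high. Nrp1, a semaphorin and VEGF receptor, fell from 738 and 779 units in input to 217 and 127 in TRAP (adjusted p = 0.0427 from limma), and Marcks, a protein kinase C substrate, fell from 6404 and 6887 to 3707 and 4325 (adjusted p = 0.0386 from limma). Grp lost its call when either TRAP array was left out (up to 0.0816), Nrp1 without input replicate 1 or input replicate 2 (up to 0.189), and Marcks whichever array was left out (up to 0.173). Among genes that narrowly missed the threshold, Zdhhc2, a palmitoyltransferase, was at 2668 and 4111 units in TRAP and 841 and 503 in input (adjusted p = 0.0547 from limma), and Cck, the neuropeptide cholecystokinin, at 5299 and 9031 and at 748 and 1439 (adjusted p = 0.062 from limma). Slc17a6, the vesicular glutamate transporter also used by other midbrain neurons, was at 3022 and 1942 units in TRAP and 7106 and 6544 in input (adjusted p = 0.0597 from limma). The median of this list changed sign with centring, to -0.07.

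Beside these, SN-leaning and general DA transcripts had larger median ratios. For the VTA-leaning markers the median log2 fold change was 1.26 over the 4 genes above background and 1.08 over all 6. For 12 SN-leaning genes above background, of 13 measured, it was 3.03, and 8 of them rose, beside 18.7% of all genes above background. Not all SN-leaning genes rose. The log2 fold change was -2.19 for Vcan, 0.52 for Igf1 and 1.73 for Sox6, each under that of Calb1 and none past the threshold. Grp of the other VTA-leaning genes (5.00), which passed background through TRAP alone, lay above most of the SN-leaning list. For 11 DA identity genes the median was 4.89, and all 11 rose, beside the same 18.7%. Drd2, Pitx3, En1 and Foxa2 of the identity list passed background through TRAP alone, the fraction in which they are high. So did Aldh1a7, Fgf20, Kcns3 and Ndnf of the SN-leaning list. The counts of both lists depend in part on this filter. With levels under 50 units raised to 50 and all measured genes kept, the medians were 1.01 for the VTA-leaning markers, 2.33 for the SN-leaning list and 3.84 for the identity list, against 0 for all genes. Without single arrays 3 or 4 of the SN-leaning genes rose, and 4 to 7 of the identity genes. Several genes of both lists, among them Aldh1a7, Anxa1, Th and Pitx3, stand in the paper's table of transcripts most enriched in these arrays. The lists were chosen with earlier results of these data known, so their larger medians are no independent evidence. The difference between the lists was not tested.

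**Figure D4:**
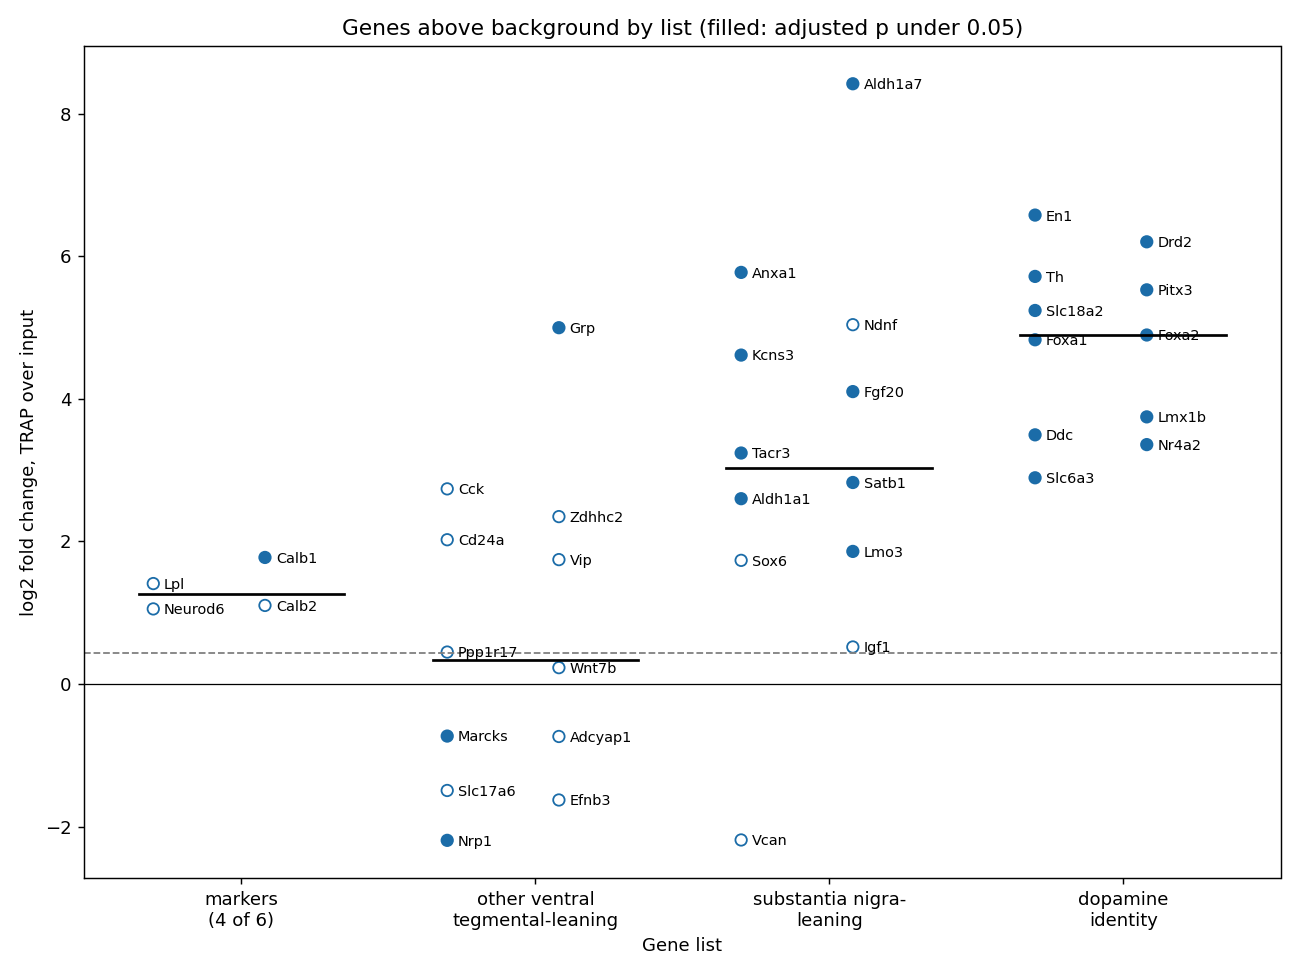
TRAP over input on the log2 scale for the genes of 4 lists that passed background (brightest probeset of each gene), filled where the adjusted p from limma was under 0.05, with a solid line at each list's median and a dashed line at 0.44, the median of all genes above background. The medians are 1.26 for the markers, 0.34 for other VTA-leaning genes, 3.03 for SN-leaning genes and 4.89 for DA identity genes.

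Genes that work with OTX2 or in its lineage were examined next. Of 14 measured, 8 were above background, 3 rose and 0 fell, with 5 positive values, beside 18.7% of genes above background called higher, 6.87% lower and 65.8% positive. Otx1 and Foxa2, 2 of the 3, passed background through TRAP alone, the fraction in which they are high. At an unadjusted p under 0.05 from limma the count of falls was likewise 0. Otx1, the paralog of Otx2, was at 61.8 and 66.3 units in TRAP and below 50 units in input, at least 1.28-fold higher. Its adjusted p of 0.000647 from limma refers to the deposited values, with 10.6 units on both input arrays. With values under 50 units raised to 50 the call of Otx1 was lost (adjusted p = 0.118 from limma). Foxa2, a forkhead factor of DA progenitors and neurons, was at least 15.3-fold higher, at 698 and 835 units in TRAP. Lmx1b, a LIM homeodomain factor, was at 785 and 1053 units in TRAP and 57.3 and 80.1 in input (log2 fold change 3.75, adjusted p = 0.0113 from limma), and missed the threshold whichever array was left out (up to 0.0936). The other positive values were those of En2 and Sox6, which missed the threshold (adjusted p = 0.0623 and 0.0574 from limma). Foxa2, Lmx1b and Lmx1a also stand in the DA identity list, and Sox6 in the SN-leaning list. Wnt1, Fgf8, Gbx2, Crx, Dmbx1 and Lmx1a were not above background.

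The bHLH relatives and partners of Neurod6 had mostly lower levels in TRAP. Of 15 measured, 9 were above background, all 9 with negative values (median -1.51), and 3 of them fell, where 34.2% of genes above background were negative and 6.87% called lower. All 3 passed background through input alone, the fraction in which they are high, so their count is no support for a fall of the list. Glial and vascular markers were lower as well, with medians of -1.74 for astrocytes (12 of 12 negative), -1.30 for oligodendrocytes (11 of 11), -2.40 for microglia (4 of 4) and -1.81 for endothelial and mural cells (6 of 6), and Id2, Id3 and Id4 of the bHLH list are also made by glia. Their part in the values of the list was not tested. Neurod2, a paralog, was at 127 and 175 units in input and below 50 units in TRAP, lower by at least 2.98-fold (limma, adjusted p = 0.0143). Neurog2, a proneural factor, was at least 1.31-fold lower and Tcf3, an E protein partner of bHLH factors, at least 1.35-fold lower (limma, adjusted p = 0.0284 and 0.0375). Neurod2 missed the threshold whichever array was left out, Neurog2 when TRAP replicate 4 or either input array was left out, and Tcf3 when either TRAP array was left out (up to 0.182). With values under 50 units raised to 50, 0 of the 9 passed. Neurod1 was at 120 and 100 units in TRAP and 456 and 151 in input (adjusted p = 0.269 from limma).

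Other calcium-binding proteins gave a median near 0. Of 17 measured, 14 were above background, with a median log2 fold change of 0.18, which became -0.23 after centring. Of the 14, 1 rose, beside 18.7% of genes above background. Ncs1, neuronal calcium sensor 1, rose from 1660 and 2017 units in input to 3370 and 3441 in TRAP (0.90 on the log2 scale, limma, adjusted p = 0.0345). It lost its call when either TRAP array was left out (up to 0.175) and after centring (0.0601). Vsnl1 and Hpcal4, neuronal calcium sensors of the same family, were above input on both TRAP arrays (log2 fold change 0.89 and 1.39, adjusted p = 0.130 and 0.0875 from limma). Parvalbumin (Pvalb), a calcium buffer of GABAergic neurons, was at 2569 and 800 units in TRAP and 2962 and 2909 in input (adjusted p = 0.353 from limma).

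For Lpl, 9 of 20 measured pathway genes were above background, and 7 of these had negative values, as did 34.2% of all genes above background. Of the 9, 1 rose, beside 18.7% of all genes above background. Furin, a protease that cleaves lipoprotein lipase, rose at least 2.09-fold, to 101 and 109 units in TRAP (adjusted p = 0.0138 from limma), passed background through TRAP alone and lost its call when either TRAP array was left out (up to 0.126). Lmf1, the maturation factor of the lipase, was below 50 units on all arrays, as were Gpihbp1, its endothelial anchor, and its cofactor Apoc2. Sel1l, which helps the lipase out of the endoplasmic reticulum, was at 2581 and 2996 units in TRAP and 2115 and 3246 in input, and Sorl1, a sorting receptor, at 3802 and 6056 and at 4751 and 6443. Both overlapped between the fractions (adjusted p = 0.826 and 0.67 from limma).

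Thyroid hormone genes, taken for Crym, had 11 of 16 above background, 5 positive and 6 negative at the deposited scaling, beside 65.8% and 34.2% of all genes above background. Of the 11, 1 rose, beside 18.7% of all genes above background. Thra, the thyroid hormone receptor alpha, rose from 3159 and 3367 units in input to 6656 and 6757 in TRAP (1.04 on the log2 scale, SE 0.04, with an adjusted p of 0.00332 from limma). It lost its call when either TRAP array was left out (up to 0.0613) and kept it after centring (log2 difference 0.63, adjusted p = 0.0196 from limma). Klf9, a target of the receptor, was at 27095 and 24442 units in TRAP and 24630 and 29588 in input. Ncoa1, a coactivator, was at 1910 and 1791 and at 1624 and 2581. Thrb, Dio1 and Slc16a10 were under 50 units on every array. Dio2, the astrocyte deiodinase, was at 314 and 94.0 units in TRAP and 665 and 1387 in input (adjusted p = 0.144 from limma). All 12 astrocyte markers were below both input arrays on both TRAP arrays, beside 23.6% of all genes above background. Their summed level was 21337 to 35958 units in TRAP and 55664 to 63483 in input.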

How the data were processed

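RNA of the TRAP and input fractions was amplified in 2 cycles and measured on Affymetrix Mouse Genome arrays of the 430 series. The authors normalized the arrays with GCRMA in R (version not given in the sources used here), so each deposited value is a log2 expression level of 1 probeset on 1 array. GCRMA leaves many dim probesets at a common low value, and 15551 have identical values within both fractions, for which limma's p is not informative. Probesets were named from GEO's platform annotation (34945 with 1 symbol, 932 with several, 9160 with none), and all 10 marker probesets matched a RefSeq table by gene identifier, with 0 symbols changed.

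The fractions were compared by limma 3.58.1, run in R 4.3.3 (1 coefficient for the fraction, no covariate, empirical Bayes variance with 0.317 prior and 2 residual degrees of freedom, 2-sided), after 64 control probesets were left out, with Benjamini-Hochberg adjustment over 45037 probesets and a threshold of 0.05. The script was tested on simulated data. A gene was represented by its probeset with the highest mean over the arrays (18193 genes, 10014 above background). Folds against a fraction whose arrays were both under 50 units are bounds computed with 50 units in its place. In the pathway lists up to 3 genes were named by rule, first called genes by size of change, then the brightest, and other genes named there were chosen after their values were seen. The number of arrays limits the precision. Replicates of a fraction are separate pools of mice. According to the paper, input was taken in parallel from each replicate, so TRAP replicate 2 and input replicate 2 may share a pool. The unpaired fit did not account for this. The markers, lists and tests were chosen with earlier results of these data known. Alternatives were quantile normalization, centring on the 13675 probesets that reached 50 units throughout, a fit limited to probesets above background, raising low values to 50 units, an intensity trend, control probesets kept, a threshold of 0.01, a background of 100 units, each array left out, and the mean of a gene's probesets.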

Additional observations from a re-analysis of the deposited data

How the results depend on the processing

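The deposited values gave 1 marker probeset called higher and 1 lower. After quantile normalization, centring, a fit of probesets above background or an intensity trend 2 were called higher, and the second was Otx2 after quantile normalization and Calb2 in the other settings. With values under 50 units raised to 50, 0 were called higher and 0 lower, and limma warned that this fit's prior was unreliable because most probesets then have no spread. The threshold of 0.01 left 0 higher, and the fit above background 0 lower, since it leaves out Calb1 1458836_at. With single arrays left out 0 to 1 were called higher. The 1 without TRAP replicate 2 or TRAP replicate 4 was Lpl 1431056_a_at, whose values are below 50 units. The sign of Calb1 1448738_at, below 50 units throughout, turned without TRAP replicate 4 (-0.18) and without input replicate 1 (-0.67), and ranged up to 1.501 without input replicate 2. No other marker probeset changed sign. The median log2 fold change of the 6 genes was 1.08. It was 0.67 after centring and 0.69 to 1.52 with single arrays left out, the ends of this range being without input replicate 2 and without input replicate 1. Over probesets above background, 3213 higher and 1559 lower became 3745 and 3867 after centring and 2222 and 2038 after quantile normalization. They became 824 and 467 with values raised to 50, 944 and 632 at 0.01, and 1006 lower at a background of 100 units. With single arrays left out they ranged from 1340 to 2652 higher and from 842 to 1313 lower, lowest without TRAP replicate 4. No paired analysis was possible because the fractions share only replicate number 2.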
